A study of Callithrix jacchus with 20 samples.

Results

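The fibroblast growth factor (FGF) pathway was followed through marmoset germ cell induction in 43 of the 25102 genes of the count table. These genes were chosen by symbol and not by a threshold on any measured value, but with earlier results of these data known. They were the numbered FGF genes, the receptors FGFR1 to FGFR4, the receptor-like FGFRL1, the co-receptor KLB, the Sprouty (SPRY1 to SPRY4) and SPRED (SPRED1 to SPRED3) inhibitors, the phosphatases DUSP4, DUSP5 and DUSP6, and the ERK-responsive genes ETV1, ETV4, ETV5, EGR1, FOSL1 and IER3. FGF19 was not analysed here. Of the 43 genes, 36 passed a filter on low counts and were tested among 15797 genes, and FGF4, FGF6, FGF10, FGF16, FGF20, FGF21 and SPRY3 were not tested.

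The study asked how marmoset induced pluripotent stem cells (cjiPSCs) can be turned into primordial germ cell-like cells (cjPGCLCs) in defined media, and its RNA-seq data held 20 libraries from 10 conditions, with 2 biological replicates in each. All libraries came from 1 line, spelled DPZ_cjiPSC2 in the sample labels and DPZ_cjiPSC#2 in the study's text, so the spread between replicates is that between cultures of 1 line and not between animals. cjiPSCs were grown in TESR, the commercial TeSR-E8 medium, or in cjPSCM, which holds CHIR, A419259, IWR-1, vitamin C, LIF, TGFβ and FGF2 in an N2B27 base. From each of these cultures, precursors of mesendoderm (pre-ME) were made by a short induction with CHIR, an agonist of WNT signalling, and the ROCK inhibitor Y-27632, with or without Activin A (ActA). Pre-ME of the cjPSCM cultures were then aggregated into embryoid bodies with BMP4, LIF, SCF, EGF and Y-27632, and on day 4 the cells were sorted into double-positive cells (cjPGCLCs) and double-negative cells (somatic cells). The sample titles name INTa6 and EpCAM as the sort markers, the cell type labels CXCR4 and EpCAM, and the design text CXCR4 and INTα6. The titles of the sorted samples also spell their medium cjEPSCM. The study's methods list FGF2 as a supplement of cjPSCM and list no FGF among the supplements of the pre-ME and cjPGCLC media, and media of the E8 type also contain FGF2. More than 1 kit was used for RNA isolation, and which library had which kit is not given in the sources used here.

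Secreted FGFs bind FGF receptors on the cell surface together with heparan sulphate, and the activated receptors switch on the RAS-RAF-MEK-ERK cascade. ERK signalling raises the transcription of ETS factors such as ETV4 and ETV5 and of immediate early genes such as EGR1, and also that of its own inhibitors, the Sprouty and SPRED proteins, which act on the RAS and RAF steps, and the DUSP phosphatases, which remove the phosphates from ERK. The RNA of these genes is therefore often read as a record of recent ERK activity, although other pathways also control them. FGF ligands maintain primed pluripotent cells, and FGF8 and its relatives are made in the primitive streak, where mesendoderm forms. FGF11 to FGF14 carry the family name but stay inside the cell, where they bind sodium channels, and KLB (beta-Klotho) is the co-receptor of the endocrine FGFs other than FGF23.

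The libraries held 4784964 to 22067099 reads on genes (median 11599813), and between 10.6% and 23.2% of reads could not be given to a gene. The pair of cjiPSC cjPSCM libraries stood apart, with an SD of the log2 difference between replicates of 0.843 against 0.269 to 0.546 in the other 9 conditions. These libraries also had the highest sums of 6 endothelial and blood markers, 11375 to 26426 normalised counts against 2348 to 2584 in cjiPSC TESR, through PECAM1 and CDH5 (means 10042 and 7630.3), while the blood genes HBZ, GATA1 and PTPRC had 0 counts in both. CDH5 varied widely between the 2 cjPSCM libraries (SD 5978). The study counts PECAM1 among the genes of naïve and formative pluripotency that cjiPSCs express in cjPSCM. The pre-ME marker TBXT had a mean of 0.834 normalised counts in cjPSCM pre-ME + ActA and 0.790 in cjPSCM pre-ME − ActA, against 43.6 in TESR pre-ME + ActA. The sums of all 7 pre-ME markers nevertheless rose in cjPSCM, from 711 to 842 in cjiPSCs to 4642 to 5993 with and 3328 to 3934 without ActA. These sums came mainly from SP5 (means 2307 with and 1604 without ActA) and AXIN2 (2233 and 1814). The sorted cjPGCLCs carried more NANOS3 (28.2 and 52.8) than the somatic cells (2.52 and 1.55, with and without ActA), but also HAND1 (2496 and 3749 against 3716 and 4216), a gene of mesoderm and amnion. The sums of 7 somatic and mesenchyme markers lay at 50718 to 61788 in cjPGCLC + ActA and 32344 to 38742 in cjPGCLC − ActA, against 52405 to 69807 and 60038 to 67835 in the somatic cells with and without ActA. The sums were also high in cjiPSCs (42503 to 67413 in TESR and 87867 to 127102 in cjPSCM), mostly through VIM (means 49794 and 105033). HAND1, COL1A1, COL3A1, COL6A3 and DCN had lower means in cjiPSCs than in somatic cells. PDGFRB had a higher mean in cjiPSC TESR (1712) than in somatic cells (1087 and 1051). What part these markers have in the values below was not tested. In RNA from many cells, fewer cells of a type and less RNA per cell cannot be told apart.

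Levels below are normalised counts, that is, counts divided by a library size factor, and they are compared between conditions and not between genes, since they were not divided by gene length. Values joined by "and" are those of replicates 1 and 2. Where a call depended on single libraries, each library named was left out on its own, and the range of the adjusted p covers all alternatives run. Folds are ratios of group means, and ± after a log2 fold change is its standard error. A gene was called higher or lower when the adjusted p of edgeR's quasi-likelihood test (Benjamini-Hochberg over all 15797 genes) was under 0.05, and calls also past a log2 fold change of 2, the study's threshold, were counted beside them. The filter keeps a gene that is high in 1 condition alone, so a low gene that was tested had to be higher somewhere. FGF17, FGF18 and KLB could pass it only through TESR pre-ME, pre-ME + ActA and cjPGCLCs, respectively. A count of 0 allows up to 3 counts, or 1.40 to 6.92 normalised counts depending on the library, and intervals and floors cover counting error only.

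Many genes of the pathway were lower in cjPSCM than in TESR, although with the libraries of the comparison alone 9 instead of 18 were called lower. In cjiPSCs in cjPSCM against TESR, 6 of the 36 genes were higher (16.7%, against 18.1% of all genes tested) and 18 were lower (50%, against 18.1%). For the medium, 12 of the 36 genes passed both thresholds (33.3%, against 9.18% of all genes). In pre-ME − ActA against their cjiPSCs in TESR, 9 of the 36 genes were higher (25%, against 17.4% of all genes tested) and 14 were lower (38.9%, against 19.2%). In TESR − ActA, 10 of the 36 genes passed both thresholds, against 7.86% of all genes. In TESR with ActA, 8 of the 36 genes were higher (22.2%, against 17.3% of all genes tested) and 12 were lower (33.3%, against 17.1%). In TESR + ActA, 5 of the 36 genes passed both thresholds (13.9%, against 6.96% of all genes). The share called lower was above that of all genes in each of these 3 comparisons, and feedback inhibitors made up 7, 9 and 8 of the lower genes. From cjPSCM without ActA, 5 of the 36 genes were higher (13.9%, against 17.9% of all genes tested) and 14 were lower (38.9%, against 20.1%). In cjPSCM − ActA, 6 of the 36 genes passed both thresholds (16.7%, against 5.27% of all genes). From cjPSCM with ActA, 6 of the 36 genes were higher (16.7%, against 7.42% of all genes tested) and 5 were lower (13.9%, against 10.3%). In cjPSCM + ActA, 3 of the 36 genes passed both thresholds (8.33%, against 3.06% of all genes). The last of these counts rested on 1 library, since without cjPSCM pre-ME + ActA replicate 1 it was 5 instead of 11. The cjPSCM inductions gave 11 instead of 19 calls without ActA and 2 instead of 11 with it when fitted to their own libraries alone. The medium comparison and the inductions share their cjiPSC libraries, so they are not independent. The TESR pre-ME libraries are also numbered apart from all others in the series. Their reads outside genes were 19.3% to 20.6%, against 10.6% and 13.3% in cjiPSC TESR and 12.2% and 19.3% in cjiPSC cjPSCM. A batch, if there was one, cannot be told apart from the TESR inductions.

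ActA in the pre-ME medium went with more genes called higher than lower. In TESR pre-ME with against without ActA, 12 of the 36 genes were higher (33.3%, against 5.63% of all genes tested) and 2 were lower (5.56%, against 3.20%). For ActA in TESR, 7 of the 36 genes passed both thresholds, against 2.00% of all genes. In cjPSCM pre-ME, 14 of the 36 genes were higher (38.9%, against 11.4% of all genes tested) and 3 were lower (8.33%, against 9.54%). For ActA in cjPSCM, 6 of the 36 genes passed both thresholds, against 2.11% of all genes. Without cjPSCM pre-ME + ActA replicate 1, 11 instead of 17 genes were called in cjPSCM. A test of whether the ActA effect differed between TESR and cjPSCM called 0 of the 36 genes (edgeR, 0.399% of all genes), with 13 at an unadjusted p under 0.05 and 2 called by DESeq2, and without cjPSCM pre-ME − ActA replicate 1 it called 1. The same test for the induction without ActA called 9 genes (6.54% of all genes), or 14 without cjiPSC cjPSCM replicate 2. These 9 were FGF3, FGF8, FGF13, SPRY1, SPRY4, SPRED3, DUSP6, ETV1 and IER3. For FGF3, the adjusted p lay between 0.00222 and 0.221 over the alternatives. The FGF3 call was lost, with an adjusted p above 0.05, without cjiPSC TESR replicate 1 (log2 difference 6.01), cjiPSC cjPSCM replicate 2 (5.24), cjPSCM pre-ME − ActA replicate 2 (5.77), TESR pre-ME − ActA replicate 1 (6.22) and TESR pre-ME − ActA replicate 2 (5.74). For SPRY1, the adjusted p lay between 0.00125 and 0.255 over the alternatives. The SPRY1 call was lost, with an adjusted p above 0.05, without cjiPSC TESR replicate 1 (log2 difference -0.78), cjPSCM pre-ME − ActA replicate 1 (-1.0), cjPSCM pre-ME − ActA replicate 2 (-1.08), TESR pre-ME − ActA replicate 1 (-1.03) and TESR pre-ME − ActA replicate 2 (-1.06). For SPRY4, the adjusted p lay between 0.00101 and 0.324 over the alternatives. The SPRY4 call was lost, with an adjusted p above 0.05, without cjiPSC TESR replicate 1 (log2 difference -0.97), cjPSCM pre-ME − ActA replicate 1 (-0.53) and TESR pre-ME − ActA replicate 2 (-0.87).

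Between the sorted populations 3 of the 36 genes were called with ActA and 8 without. With the libraries of the comparison alone these counts were 7 and 14. In cjPGCLCs against somatic cells from pre-ME + ActA, 3 of the 36 genes were higher (8.33%, against 3.68% of all genes tested) and 0 were lower (0%, against 1.16%). In this sort + ActA, 1 of the 36 genes passed both thresholds, against 1.58% of all genes. The genes called higher were FGF12, FGF13 and KLB. For the 0 lower calls of edgeR, 1 gene was lower at an unadjusted p under 0.05 and DESeq2 called 0. From pre-ME − ActA, 5 of the 36 genes were higher (13.9%, against 6.67% of all genes tested) and 3 were lower (8.33%, against 2.96%). In this sort − ActA, 2 of the 36 genes passed both thresholds, against 2.84% of all genes. The count of 8 fell when any of the 4 libraries was left out, with 3 calls without somatic − ActA replicate 1 and 4 without somatic − ActA replicate 2, cjPGCLC − ActA replicate 1 or cjPGCLC − ActA replicate 2. A test of the difference between these comparisons called 1 gene, FGFR4 (0.0633% of all genes), and called 0 without any single library of the 8 other than cjPGCLC + ActA replicate 2.

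From pre-ME to the sorted day 4 cells, many genes moved in both directions. In cjPGCLCs against pre-ME + ActA, 8 of the 36 genes were higher (22.2%, against 25.3% of all genes tested) and 11 were lower (30.6%, against 23.0%). Towards cjPGCLCs + ActA, 7 of the 36 genes passed both thresholds (19.4%, against 8.36% of all genes). In cjPGCLCs against pre-ME − ActA, 13 of the 36 genes were higher (36.1%, against 21.5% of all genes tested) and 9 were lower (25%, against 18.5%). Towards cjPGCLCs − ActA, 9 of the 36 genes passed both thresholds (25%, against 7.88% of all genes). In somatic cells against pre-ME + ActA, 7 of the 36 genes were higher (19.4%, against 23.8% of all genes tested) and 11 were lower (30.6%, against 24.2%). Towards somatic cells + ActA, 8 of the 36 genes passed both thresholds (22.2%, against 8.30% of all genes). With ActA the shares called by the adjusted p alone were near those of all genes, so the number of these calls itself says little about the pathway. Past both thresholds, the shares with ActA were above those of all genes. In somatic cells against pre-ME − ActA, 16 of the 36 genes were higher (44.4%, against 20.6% of all genes tested) and 8 were lower (22.2%, against 21.7%). Towards somatic cells − ActA, 8 of the 36 genes passed both thresholds (22.2%, against 7.94% of all genes). Each pre-ME condition is the reference of both its cjPGCLCs and its somatic cells, so these pairs of comparisons share libraries.

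The ActA history of the pre-ME was also compared within each sorted population, and the test that called FGFR4 above is at the same time the test of whether the effect of this history differed between the populations. In cjPGCLCs from pre-ME with against without ActA, 5 of the 36 genes were higher (13.9%, against 1.37% of all genes tested) and 3 were lower (8.33%, against 1.16%). Within the cjPGCLCs, 0 passed both thresholds, against 0.380% of all genes. The count of 8 fell to 1 without cjPGCLC + ActA replicate 1, without cjPGCLC − ActA replicate 1 or without cjPGCLC − ActA replicate 2. In somatic cells, 0 of the 36 genes were higher (0%, against 0.0190% of all genes tested) and 0 were lower (0%, against 0.00633%). Within the somatic cells, 0 passed both thresholds, against 0.00633% of all genes. For this 0, 4 genes were higher and 0 lower at an unadjusted p under 0.05 in edgeR, and DESeq2 called 0.

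**Figure D1:**
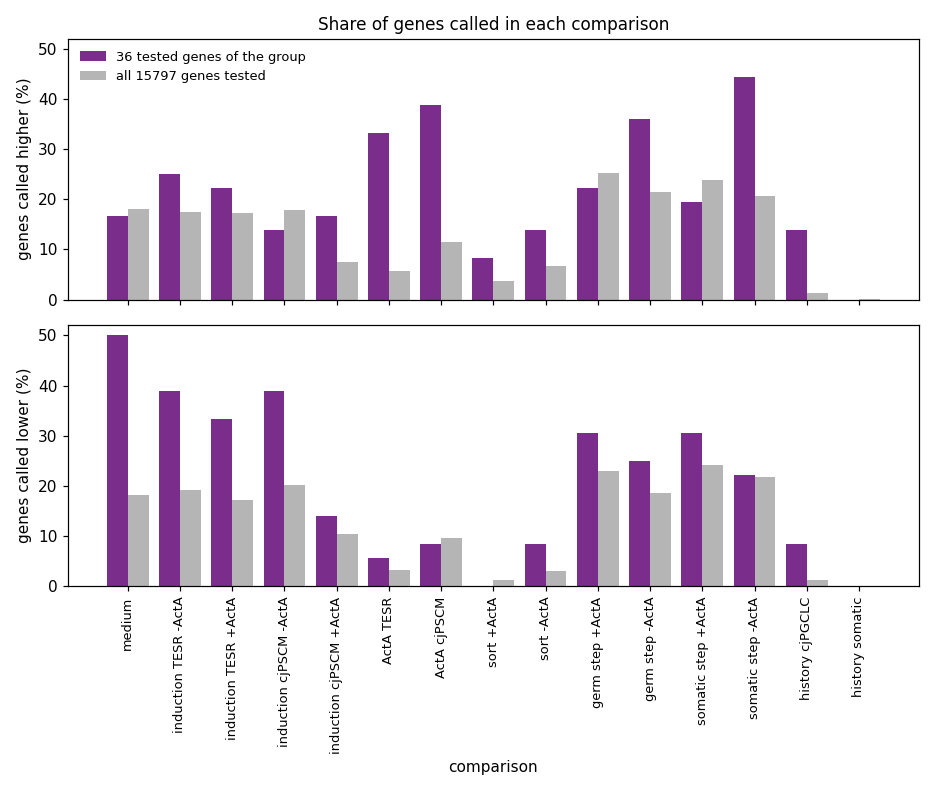
Share of genes called higher (top) and lower (bottom) at an adjusted p under 0.05 in each of the 15 comparisons, in percent, for the 36 tested genes of the FGF pathway (purple) and for all 15797 tested genes (grey). The purple bars stand well above the grey ones for lower calls in the medium comparison (50% against 18.1%) and for higher calls in the 2 ActA comparisons (33.3% against 5.63% and 38.9% against 11.4%).

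Among the secreted ligands, FGF8, a ligand of the primitive streak, was high in pre-ME and low by day 4. It stood at 11.6 and 10.4 normalised counts in cjiPSC TESR and 26.4 and 26.7 in cjiPSC cjPSCM, at 173 and 105 in TESR pre-ME − ActA and 825 and 832 in TESR pre-ME + ActA, and at 43.6 and 23.8 in cjPSCM pre-ME − ActA and 730.1 and 509.8 in cjPSCM pre-ME + ActA. In the day 4 cells it was at 1.52 and 0 in cjPGCLC − ActA, 4.23 and 2.84 in cjPGCLC + ActA, 4.61 and 0 in somatic − ActA and 1.77 and 5.96 in somatic + ActA. Both media therefore gave the highest level in pre-ME with ActA, and the libraries with and without ActA did not overlap. ActA raised FGF8 5.97-fold in TESR pre-ME (log2 fold change 2.58 ± 0.28, adjusted p = 1.46e-05) and 18.4-fold in cjPSCM pre-ME (log2 fold change 4.13 ± 0.32, adjusted p = 6.68e-07). The induction without ActA raised it in TESR (log2 fold change 3.62 ± 0.39, adjusted p = 3.53e-06), whereas in cjPSCM the log2 fold change was 0.43 ± 0.39, adjusted p = 0.408, and the test of the difference between the media gave 3.19 ± 0.57 on the log2 scale (adjusted p = 0.00313). With ActA, the fall to the day 4 cells was 175-fold in cjPGCLCs (log2 fold change -7.35 ± 0.46, adjusted p = 6.84e-09) and 160.3-fold in somatic cells (log2 fold change -7.24 ± 0.49, adjusted p = 1.41e-08). Without ActA, the few counts of the sorted cells gave ratios of 35.3 with an exact 95% counting interval of 9.52 to 296 for pre-ME over cjPGCLCs and 19.6 with an exact 95% counting interval of 5.27 to 164 for pre-ME over somatic cells. For the former (adjusted p = 4.93e-05), the adjusted p lay between 1.19e-16 and 0.00196 over the alternatives. For FGF8, the log2 fold change was -8.32 without cjPGCLC − ActA replicate 1. For the latter (adjusted p = 0.000426), the adjusted p lay between 1.91e-10 and 0.0192 over the alternatives. For FGF8, the log2 fold change was -8.37 without somatic − ActA replicate 1.

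FGF18, a ligand of the FGF8 subfamily, stood above 7.45 normalised counts in no library other than the 4 of pre-ME with ActA. It had 134 and 226 normalised counts in TESR pre-ME + ActA and 44.2 and 32.3 in cjPSCM pre-ME + ActA, against 4.94 and 4.68 in TESR pre-ME − ActA and 1.77 and 0.991 in cjPSCM pre-ME − ActA. In cjiPSCs it had 4.41 and 7.45 (TESR) and 1.88 and 5.93 (cjPSCM), in sorted cells + ActA 0.845 and 1.42 (cjPGCLCs) and 5.31 and 1.49 (somatic cells), and in sorted cells − ActA 0 counts in all 4 libraries. ActA raised FGF18 37.3-fold in TESR (log2 fold change 5.19 ± 0.42, adjusted p = 2.11e-06), and in cjPSCM the ratio of pre-ME with over without ActA was 26.9 with an exact 95% counting interval of 10.1 to 101 (log2 fold change 4.61 ± 0.57, adjusted p = 0.000101). Against the cjiPSCs of the same medium, pre-ME + ActA was 30.3-fold higher in TESR (log2 fold change 5.04 ± 0.45, adjusted p = 1.87e-06) and 9.79-fold higher in cjPSCM (log2 fold change 3.44 ± 0.55, adjusted p = 0.000597). By day 4 it had fallen, with a ratio of pre-ME + ActA over cjPGCLCs of 37.5 with an exact 95% counting interval of 10 to 315 (log2 fold change -5.05 ± 0.66, adjusted p = 2.58e-05) and over somatic cells of 12.3 with an exact 95% counting interval of 4.61 to 46.3 (log2 fold change -3.54 ± 0.60, adjusted p = 0.000233).

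FGF3, a ligand of the FGF7 subfamily, had the opposite relation to ActA. Its levels were 123 and 169 in TESR pre-ME − ActA and 86.7 and 53.5 in cjPSCM pre-ME − ActA, but 2.19 and 4.78 in TESR pre-ME + ActA and 5.84 and 12.6 in cjPSCM pre-ME + ActA. It had 0 counts in both cjiPSC TESR libraries, 1.88 and 5.93 in cjiPSC cjPSCM, 0.759 and 0 in cjPGCLC − ActA, 0 and 1.42 in cjPGCLC + ActA, 2.31 and 1.55 in somatic − ActA and 1.77 and 0 in somatic + ActA. Pre-ME with ActA had 41.9-fold less FGF3 in TESR (log2 fold change -5.34 ± 0.50, adjusted p = 4.86e-06) and 7.58-fold less in cjPSCM (log2 fold change -3.04 ± 0.49, adjusted p = 0.000755). Without ActA, pre-ME was at least 47.7-fold above the cjiPSCs in TESR (adjusted p = 7.08e-07; floor of 3 counts per library) and 17.9-fold above those in cjPSCM (log2 fold change 4.32 ± 0.58, adjusted p = 5.6e-05). Fitted folds against libraries at 0 depend on the prior count of the fit and are not bounds. In the sorted cells without ActA, FGF3 had fallen again, with ratios of pre-ME over cjPGCLCs of 145 with an exact 95% counting interval of 25.7 to 5753 and over somatic cells of 40.1 with an exact 95% counting interval of 11 to 334 (adjusted p = 5.75e-06 and 3.98e-05). Its other calls rested on single libraries of few counts. The medium difference (at least 1.28-fold, adjusted p = 0.0283) is one of these. In that comparison, the adjusted p lay between 0.00739 and 0.206 over the alternatives. The FGF3 call was lost, with an adjusted p above 0.05, without cjiPSC TESR replicate 1 (log2 fold change 4.97) and cjiPSC cjPSCM replicate 2 (4.20). In the TESR induction with ActA (adjusted p = 0.0188), the adjusted p lay between 0.00184 and 0.154 over the alternatives. The FGF3 call was lost, with an adjusted p above 0.05, without cjiPSC TESR replicate 1 (log2 fold change 5.0) and TESR pre-ME + ActA replicate 2 (4.34). From pre-ME + ActA to cjPGCLCs (adjusted p = 0.00924), the adjusted p lay between 0.000528 and 0.13 over the alternatives. The FGF3 call was lost, with an adjusted p above 0.05, without cjPSCM pre-ME + ActA replicate 2 (log2 fold change -3.22) and cjPGCLC + ActA replicate 1 (-2.51). For FGF3, the log2 fold change was -6.32 without cjPGCLC + ActA replicate 2. From pre-ME + ActA to somatic cells (adjusted p = 0.0271), the adjusted p lay between 0.00587 and 0.199 over the alternatives. The FGF3 call was lost, with an adjusted p above 0.05, without cjPSCM pre-ME + ActA replicate 2 (log2 fold change -2.72) and somatic + ActA replicate 2 (-2.23). For FGF3, the log2 fold change was -6.34 without somatic + ActA replicate 1.

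FGF2, the ligand supplied in pluripotency media, was itself higher in the day 4 cells than in the pre-ME they came from. It had 254 and 271 normalised counts in cjPGCLC − ActA, 55.8 and 104 in cjPGCLC + ActA, 143 and 114 in somatic − ActA and 74.4 and 71.6 in somatic + ActA. In pre-ME it had 10.6 and 12.9 (cjPSCM − ActA), 11.7 and 7.02 (cjPSCM + ActA), 22.5 and 22.5 (TESR − ActA) and 61.3 and 31.3 (TESR + ActA), and in cjiPSCs 18.7 and 8.93 (TESR) and 0.942 and 7.41 (cjPSCM). No library of the sorted cells overlapped with those of the cjPSCM pre-ME. From pre-ME − ActA, FGF2 rose 22.4-fold in cjPGCLCs (log2 fold change 4.48 ± 0.44, adjusted p = 9.5e-07) and 11-fold in somatic cells (log2 fold change 3.43 ± 0.45, adjusted p = 1.77e-05). From pre-ME + ActA it rose 8.53-fold (log2 fold change 2.99 ± 0.49, adjusted p = 0.000111) and 7.80-fold (log2 fold change 2.88 ± 0.50, adjusted p = 0.000193). The cjPGCLCs from pre-ME + ActA had 3.29-fold less FGF2 than those from pre-ME − ActA (adjusted p = 0.0179). For FGF2 here, the adjusted p lay between 1.14e-06 and 0.278 over the alternatives. The FGF2 call was lost, with an adjusted p above 0.05, without cjPGCLC + ActA replicate 1 (log2 fold change -1.34), cjPGCLC − ActA replicate 1 (-1.79) and cjPGCLC − ActA replicate 2 (-1.70). The lower level in cjiPSC cjPSCM than in cjiPSC TESR (adjusted p = 0.0275) rested on few counts. Between the media, the adjusted p lay between 0.00152 and 0.373 over the alternatives. The FGF2 call was lost, with an adjusted p above 0.05, without cjiPSC TESR replicate 1 (log2 fold change -1.31) and cjiPSC cjPSCM replicate 1 (-1.09). For FGF2, the log2 fold change was -3.90 without cjiPSC cjPSCM replicate 2. In the TESR induction with ActA (3.35-fold higher, adjusted p = 0.00966), the adjusted p lay between 5.72e-05 and 0.143 over the alternatives. The FGF2 call was lost, with an adjusted p above 0.05, without cjiPSC TESR replicate 2 (log2 fold change 1.29) and TESR pre-ME + ActA replicate 1 (1.05).

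FGF1, a ligand that can bind all FGF receptors, fell by day 4, where FGF2 rose. It had 44.6 and 20.8 in cjiPSC TESR and 71.6 and 32.6 in cjiPSC cjPSCM, 79.0 and 102 (− ActA) and 52 and 72.7 (+ ActA) in TESR pre-ME, and 64.3 and 74.3 (− ActA) and 83.4 and 74.4 (+ ActA) in cjPSCM pre-ME. On day 4 it had 7.59 and 4.73 in cjPGCLC − ActA, 13.5 and 21.3 in cjPGCLC + ActA, 6.92 and 6.19 in somatic − ActA and 14.2 and 16.4 in somatic + ActA, all below every pre-ME library. The fall was 11.2-fold in cjPGCLCs and 10.6-fold in somatic cells without ActA (log2 fold change -3.39 ± 0.48, adjusted p = 3.64e-05, and -3.42 ± 0.54, adjusted p = 9.92e-05), and 4.53-fold and 5.17-fold with ActA (log2 fold change -2.22 ± 0.42, adjusted p = 0.000373, and -2.37 ± 0.45, adjusted p = 0.000417). FGF1 was also 2.77-fold higher in TESR pre-ME − ActA than in cjiPSC TESR (adjusted p = 0.00661). In that induction, the adjusted p lay between 0.000172 and 0.0645 over the alternatives. The FGF1 call was lost, with an adjusted p above 0.05, without cjiPSC TESR replicate 2 (log2 fold change 1.01) and TESR pre-ME − ActA replicate 2 (1.19). For FGF1, the log2 fold change was 2.15 without cjiPSC TESR replicate 1. FGF9, a ligand of gonad and mesenchyme development, separated the media. It had 48.5 and 40.2 in cjiPSC TESR against 5.65 and 5.93 in cjiPSC cjPSCM (7.66-fold lower, log2 fold change -2.96 ± 0.41, adjusted p = 3.51e-05). Its pre-ME levels were 54.9 and 44.0 (− ActA) and 55.8 and 78.6 (+ ActA) in TESR against 18.9 and 15.9 (− ActA) and 14.2 and 9.83 (+ ActA) in cjPSCM, and its day 4 levels 19.0 and 26.8 in cjPGCLC − ActA, 15.2 and 28.4 in cjPGCLC + ActA, 36.9 and 37.1 in somatic − ActA and 28.3 and 29.8 in somatic + ActA. Every TESR library thus lay above every cjPSCM library of the cjiPSCs and pre-ME. The rise from cjiPSC cjPSCM to pre-ME − ActA was 3.0-fold (adjusted p = 0.0098). In that induction, the adjusted p lay between 0.00974 and 0.136 over the alternatives. The FGF9 call was lost, with an adjusted p above 0.05, without cjiPSC cjPSCM replicate 1 (log2 fold change 1.6) and cjPSCM pre-ME − ActA replicate 1 (1.49). Its rises from pre-ME to somatic cells were 2.42-fold with ActA and 2.13-fold without (adjusted p = 0.0175 and 0.0271). With ActA, the adjusted p lay between 0.00988 and 0.106 over the alternatives. The FGF9 call was lost, with an adjusted p above 0.05, without cjPSCM pre-ME + ActA replicate 2 (log2 fold change 1.0), somatic + ActA replicate 1 (1.25) and somatic + ActA replicate 2 (1.18). Without ActA, the adjusted p lay between 0.023 and 0.13 over the alternatives. The FGF9 call was lost, with an adjusted p above 0.05, without cjPSCM pre-ME − ActA replicate 1 (log2 fold change 1.17), cjPSCM pre-ME − ActA replicate 2 (0.92), somatic − ActA replicate 1 (1.04) and somatic − ActA replicate 2 (1.01).

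The other secreted ligands were low. FGF17, of the FGF8 subfamily, had 5.49 and 12.2 normalised counts in TESR pre-ME − ActA and 7.11 and 13.3 in TESR pre-ME + ActA, and no more than 1.67 in any library of the other 8 conditions. Both cjiPSC TESR libraries had 0 counts, so that pre-ME was at least 2.88-fold higher without and at least 3.33-fold higher with ActA (adjusted p = 0.00352 and 0.00286). Without ActA, the adjusted p lay between 0.000101 and 0.0528 over the alternatives. The FGF17 call was lost, with an adjusted p above 0.05, without cjiPSC TESR replicate 1 (log2 fold change 6.33). FGF5, a marker of the primed epiblast, had 9.92 and 11.9 in cjiPSC TESR, 0.942 and 4.45 in cjiPSC cjPSCM, 3.84 and 5.61 (− ActA) and 2.74 and 2.65 (+ ActA) in TESR pre-ME, 1.77 and 2.97 (− ActA) and 1.67 and 2.81 (+ ActA) in cjPSCM pre-ME. On day 4, FGF5 had 0.759 and 0 (− ActA) and 2.54 and 5.69 (+ ActA) in cjPGCLCs and 4.61 and 6.19 (− ActA) and 1.77 and 1.49 (+ ActA) in somatic cells. It was lower in cjiPSC cjPSCM than in TESR by a ratio of 4.54 with an exact 95% counting interval of 1.57 to 17.9 (adjusted p = 0.0142) and 4.05-fold lower in TESR pre-ME + ActA than in the cjiPSCs (log2 fold change -1.93 ± 0.52, adjusted p = 0.0087). Between the media, the adjusted p lay between 0.00661 and 0.194 over the alternatives. For FGF5, the log2 fold change was -3.35 without cjiPSC cjPSCM replicate 2. FGF7, a mesenchymal ligand, had its highest level in somatic − ActA (20.8 and 32.5), with 14.2 and 17.9 in somatic + ActA, 20.5 and 15.8 (− ActA) and 11.8 and 2.84 (+ ActA) in cjPGCLCs, 15.4 and 8.89 (− ActA) and 8.21 and 5.31 (+ ActA) in TESR pre-ME, 7.66 and 5.94 (− ActA) and 6.68 and 5.62 (+ ActA) in cjPSCM pre-ME, 2.20 and 0 in cjiPSC TESR and 0.942 and 7.41 in cjiPSC cjPSCM. It was called higher in TESR pre-ME − ActA than in cjiPSCs (adjusted p = 0.0083) and in somatic cells than in pre-ME − ActA (3.91-fold, adjusted p = 0.0167), both on few counts. In the former, the adjusted p lay between 0.00047 and 0.0613 over the alternatives. The FGF7 call was lost, with an adjusted p above 0.05, without TESR pre-ME − ActA replicate 1 (log2 fold change 2.43). For FGF7, the log2 fold change was 6.75 without cjiPSC TESR replicate 1. In the latter, the adjusted p lay between 0.00453 and 0.197 over the alternatives. The FGF7 call was lost, with an adjusted p above 0.05, without cjPSCM pre-ME − ActA replicate 1 (log2 fold change 2.13), cjPSCM pre-ME − ActA replicate 2 (1.77) and somatic − ActA replicate 2 (1.51). FGF22 lay between 1.88 and 13.4 normalised counts over the 20 libraries and was called in 0 of the 15 comparisons by edgeR. FGF4, FGF6, FGF10, FGF16 and FGF20 reached at most 12 counts in a library, and FGF21 at most 3.

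FGF23, an endocrine ligand best known from bone, was the only tested endocrine member. It had 80.4 and 44.7 in cjiPSC TESR and 49.8 and 46.7 in TESR pre-ME + ActA, but 6.58 and 4.68 in TESR pre-ME − ActA, 3.77 and 13.3 in cjiPSC cjPSCM, and 5.90 and 3.96 (− ActA) and 7.51 and 2.81 (+ ActA) in cjPSCM pre-ME. The sorted cells had 4.56 and 7.88 (cjPGCLC − ActA), 23.7 and 14.2 (cjPGCLC + ActA), 16.1 and 34.0 (somatic − ActA) and 12.4 and 28.3 (somatic + ActA). It was 7.31-fold lower in cjPSCM than in TESR (log2 fold change -3.06 ± 0.55, adjusted p = 0.000376), fell 11.1-fold in the TESR induction without ActA (log2 fold change -3.50 ± 0.51, adjusted p = 7.19e-05) and was 8.57-fold higher in TESR pre-ME with than without ActA (log2 fold change 3.09 ± 0.50, adjusted p = 0.000645). Its rise from pre-ME − ActA to somatic cells was 5.09-fold (adjusted p = 0.00699). In that step, the adjusted p lay between 0.000242 and 0.198 over the alternatives. The FGF23 call was lost, with an adjusted p above 0.05, without somatic − ActA replicate 2 (log2 fold change 1.59). It also passed the test in cjPGCLCs against somatic cells − ActA (4.03-fold lower, adjusted p = 0.0483) and from pre-ME + ActA to cjPGCLCs (3.67-fold higher, 0.0287) and to somatic cells (3.95-fold higher, 0.0287). In the sort comparison, the adjusted p lay between 0.00311 and 0.505 over the alternatives. The FGF23 call was lost, with an adjusted p above 0.05, without somatic − ActA replicate 1 (log2 fold change -2.52), somatic − ActA replicate 2 (-1.45), cjPGCLC − ActA replicate 1 (-1.71) and cjPGCLC − ActA replicate 2 (-2.48). In the step to cjPGCLCs, the adjusted p lay between 0.00586 and 0.24 over the alternatives. The FGF23 call was lost, with an adjusted p above 0.05, without cjPSCM pre-ME + ActA replicate 2 (log2 fold change 1.35) and cjPGCLC + ActA replicate 1 (1.32). For FGF23, the log2 fold change was 2.76 without cjPSCM pre-ME + ActA replicate 1. In the step to somatic cells, the adjusted p lay between 0.006 and 0.355 over the alternatives. The FGF23 call was lost, with an adjusted p above 0.05, without cjPSCM pre-ME + ActA replicate 2 (log2 fold change 1.42) and somatic + ActA replicate 2 (1.11). For FGF23, the log2 fold change was 2.83 without cjPSCM pre-ME + ActA replicate 1.

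**Figure D2:**
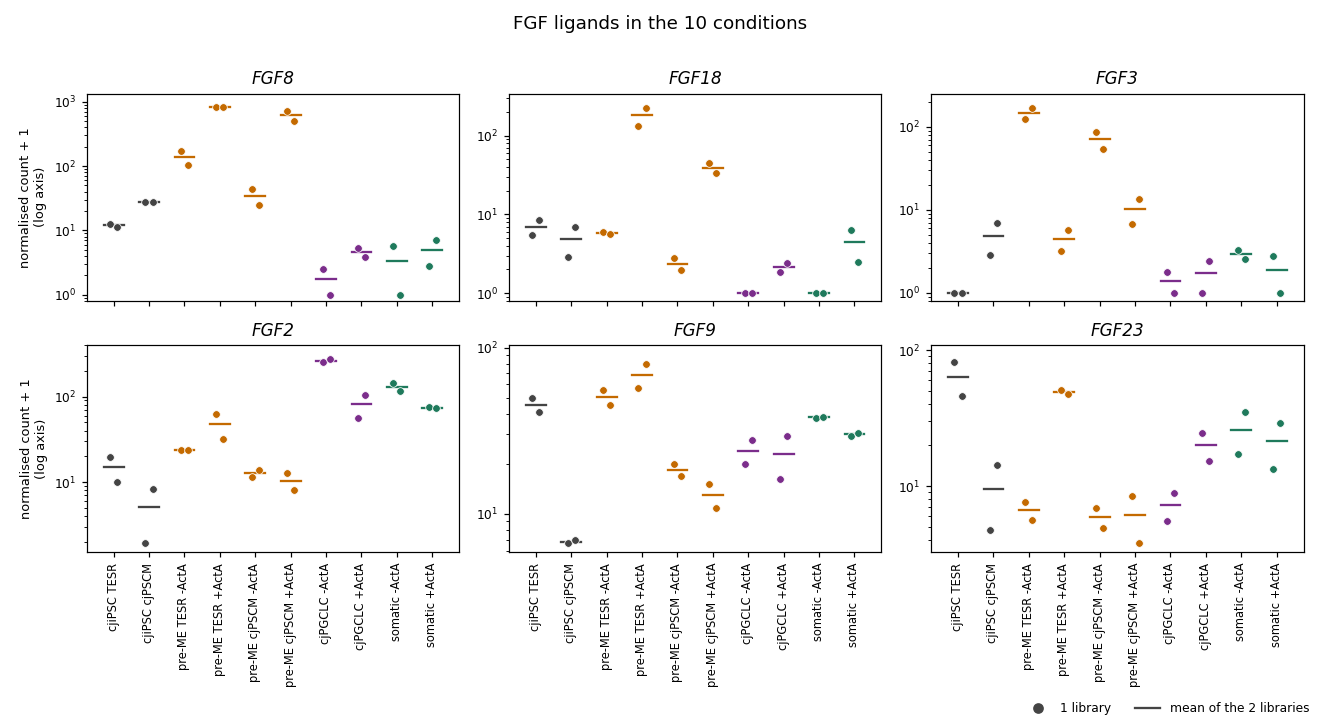
Normalised counts plus 1 (log axis) of FGF8, FGF18, FGF3, FGF2, FGF9 and FGF23 in the 10 conditions, where each point is 1 library and each line the mean of the 2 libraries. FGF8 and FGF18 are highest in pre-ME + ActA (510 to 832 and 32.3 to 226 normalised counts), FGF3 in pre-ME − ActA (53.5 to 169), while FGF2 lies between 55.8 and 271 in the sorted cells and reaches 61.3 in 1 library of the earlier stages.

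The intracellular homologous factors, which are not secreted, moved in different directions. FGF13 had 1075 and 1337 normalised counts in cjiPSC TESR and 294 and 273 in cjiPSC cjPSCM, 358 and 437 (− ActA) and 420.3 and 470.2 (+ ActA) in TESR pre-ME, and 294 and 294 (− ActA) and 481 and 423 (+ ActA) in cjPSCM pre-ME. On day 4 it had 174 and 216 (− ActA) and 189 and 199 (+ ActA) in cjPGCLCs and 89.9 and 97.5 (− ActA) and 95.6 and 96.9 (+ ActA) in somatic cells. It was 4.26-fold lower in cjPSCM than in TESR (log2 fold change -2.10 ± 0.15, adjusted p = 3.47e-08) and fell 3.03-fold in the TESR induction without ActA (log2 fold change -1.58 ± 0.15, adjusted p = 9.52e-07). It was also 2.02-fold higher in cjPGCLCs than in somatic cells with ActA (log2 fold change 1.02 ± 0.18, adjusted p = 0.00232) and 2.08-fold higher without (log2 fold change 1.05 ± 0.18, adjusted p = 0.00105), with no overlap of libraries. FGF12 had 133 and 121 in cjiPSC TESR, 331 and 362 in cjiPSC cjPSCM, 470.4 and 490.4 (− ActA) and 189 and 163 (+ ActA) in cjPSCM pre-ME, and 178 and 146 (− ActA) and 117 and 109 (+ ActA) in TESR pre-ME. In sorted cells it had 83.5 and 82.0 (− ActA) and 178 and 125 (+ ActA) in cjPGCLCs and 57.7 and 48.0 (− ActA) and 56.7 and 53.7 (+ ActA) in somatic cells. It was 2.73-fold higher in cjPSCM than in TESR (log2 fold change 1.42 ± 0.18, adjusted p = 1.24e-05), 2.73-fold lower in cjPSCM pre-ME with than without ActA (log2 fold change -1.46 ± 0.18, adjusted p = 4.45e-05), and fell from pre-ME − ActA by 5.81-fold to cjPGCLCs (log2 fold change -2.55 ± 0.19, adjusted p = 3.71e-08) and 9.10-fold to somatic cells (log2 fold change -3.23 ± 0.21, adjusted p = 8.42e-09). FGF12 was also higher in cjPGCLCs than in somatic cells with ActA (2.75-fold, log2 fold change 1.48 ± 0.21, adjusted p = 0.000415). FGF14 was low, with 2.20 and 1.49 in cjiPSC TESR and 20.7 and 8.89 in cjiPSC cjPSCM, 5.49 and 6.55 (− ActA) and 1.64 and 5.31 (+ ActA) in TESR pre-ME, 5.90 and 6.93 (− ActA) and 9.18 and 4.21 (+ ActA) in cjPSCM pre-ME. On day 4, FGF14 had 18.2 and 14.2 (− ActA) and 32.1 and 21.3 (+ ActA) in cjPGCLCs and 13.8 and 9.28 (− ActA) and 17.7 and 7.45 (+ ActA) in somatic cells. It was called higher in cjiPSC cjPSCM than in TESR (8.02-fold, adjusted p = 0.00366) and in cjPGCLCs than in pre-ME + ActA (3.99-fold, adjusted p = 0.00741). Between the media, the adjusted p lay between 0.000497 and 0.0937 over the alternatives. The FGF14 call was lost, with an adjusted p above 0.05, without cjiPSC cjPSCM replicate 1 (log2 fold change 2.05). In the step to cjPGCLCs, the adjusted p lay between 0.0029 and 0.0932 over the alternatives. The FGF14 call was lost, with an adjusted p above 0.05, without cjPSCM pre-ME + ActA replicate 2 (log2 fold change 1.54) and cjPGCLC + ActA replicate 1 (1.56). FGF11 lay between 9.36 and 70.8 and had its 8 highest libraries among the sorted cells.

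All 4 signalling receptors lay between 469 and 7449 normalised counts over the 20 libraries. FGFR1, the main receptor of pluripotent cells, had 5106 and 6188 in cjiPSC TESR and 2137 and 5073 in cjiPSC cjPSCM, 6620.2 and 6300.2 (− ActA) and 4726 and 4942 (+ ActA) in TESR pre-ME, and 5170.0 and 4183 (− ActA) and 4996 and 4470.2 (+ ActA) in cjPSCM pre-ME. In sorted cells it had 7449 and 6818 in cjPGCLC − ActA, 4616 and 4440.4 in cjPGCLC + ActA, 3634 and 3405 in somatic − ActA and 3637 and 3453 in somatic + ActA. The highest condition was cjPGCLC − ActA and the lowest somatic − ActA, 2.03-fold apart (log2 fold change 1.04 ± 0.25, adjusted p = 0.0117). For this pair, the adjusted p lay between 7.44e-09 and 0.116 over the alternatives. The FGFR1 call was lost, with an adjusted p above 0.05, without somatic − ActA replicate 1 (log2 fold change 1.08), somatic − ActA replicate 2 (0.99) and cjPGCLC − ActA replicate 1 (0.96). FGFR1 was also called lower in cjiPSC cjPSCM than in TESR (log2 fold change -0.67 ± 0.24, adjusted p = 0.0406), where the cjPSCM libraries lay further from each other than the means of the media. Between the media, the adjusted p lay between 1.41e-06 and 0.349 over the alternatives. The FGFR1 call was lost, with an adjusted p above 0.05, without cjiPSC TESR replicate 1 (log2 fold change -0.79), cjiPSC TESR replicate 2 (-0.56) and cjiPSC cjPSCM replicate 1 (-0.19). For FGFR1, the log2 fold change was -1.40 without cjiPSC cjPSCM replicate 2.

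FGFR2, which serves epithelia, was highest in pre-ME without ActA. It had 2255 and 2472 in TESR pre-ME − ActA and 2018 and 1817 in cjPSCM pre-ME − ActA, against 1264 and 1377 in TESR and 1035 and 1083 in cjPSCM pre-ME + ActA, 1274 and 1340.1 in cjiPSC TESR and 673 and 998 in cjiPSC cjPSCM. The sorted cells had 1098 and 1114 (cjPGCLC − ActA), 1165 and 978 (cjPGCLC + ActA), 1160.0 and 927 (somatic − ActA) and 931 and 811 (somatic + ActA). It rose in the inductions without ActA in TESR (1.81-fold, log2 fold change 0.87 ± 0.16, adjusted p = 0.000466) and cjPSCM (2.30-fold, log2 fold change 1.24 ± 0.16, adjusted p = 2.74e-05), and was lower with than without ActA by 1.79-fold in TESR (log2 fold change -0.84 ± 0.16, adjusted p = 0.00195) and 1.81-fold in cjPSCM (log2 fold change -0.88 ± 0.16, adjusted p = 0.00132). It fell again from pre-ME − ActA to cjPGCLCs (log2 fold change -0.81 ± 0.16, adjusted p = 0.000698) and to somatic cells (log2 fold change -0.91 ± 0.16, adjusted p = 0.000251). FGFR2 was 1.56-fold lower in cjiPSC cjPSCM than in TESR (log2 fold change -0.67 ± 0.16, adjusted p = 0.00335). In that comparison, the adjusted p lay between 0.000112 and 0.194 over the alternatives. For FGFR2, the log2 fold change was -0.43 without cjiPSC cjPSCM replicate 1.

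FGFR3, known from skeletal growth, was higher on day 4 than in pre-ME. Its levels were 578 and 786 in cjiPSC TESR and 645 and 1626 in cjiPSC cjPSCM, 1839.5 and 1737 (− ActA) and 1775 and 1670.3 (+ ActA) in TESR pre-ME, and 1839 and 1609.8 (− ActA) and 1596 and 1261 (+ ActA) in cjPSCM pre-ME. They reached 5765 and 4804 in cjPGCLC − ActA, 4346 and 3606 in cjPGCLC + ActA, 4845 and 4063 in somatic − ActA and 3515 and 2996 in somatic + ActA, above every library of the earlier stages. The TESR inductions raised FGFR3 2.62-fold without ActA (log2 fold change 1.41 ± 0.28, adjusted p = 0.00102) and 2.52-fold with it (log2 fold change 1.36 ± 0.28, adjusted p = 0.00148). The cjPSCM inductions did not pass the test, with overlapping libraries (log2 fold change 0.65 ± 0.28, adjusted p = 0.0721 without ActA, and 0.36 ± 0.28, adjusted p = 0.387 with it). From pre-ME − ActA it rose 3.06-fold to cjPGCLCs (log2 fold change 1.6 ± 0.28, adjusted p = 0.000249) and 2.58-fold to somatic cells (log2 fold change 1.34 ± 0.28, adjusted p = 0.00102), and from pre-ME + ActA 2.78-fold (log2 fold change 1.48 ± 0.28, adjusted p = 0.000385) and 2.28-fold (log2 fold change 1.18 ± 0.28, adjusted p = 0.00226). It did not pass the test between cjPGCLCs and somatic cells (log2 fold change 0.30 ± 0.27, adjusted p = 0.714 with ActA, and 0.27 ± 0.27, adjusted p = 0.669 without). FGFR4, a receptor of endoderm and muscle precursors, was higher in cjPGCLCs than in somatic cells without ActA. It had 1452 and 1232 in cjPGCLC − ActA against 533 and 469 in somatic − ActA (2.68-fold, log2 fold change 1.45 ± 0.13, adjusted p = 2.18e-06), but 603 and 610.0 in cjPGCLC + ActA against 492 and 490.5 in somatic + ActA (log2 fold change 0.31 ± 0.13, adjusted p = 0.215). The test of the difference between these contrasts gave -1.13 ± 0.18 on the log2 scale (adjusted p = 0.0341). For that difference, the adjusted p lay between 4e-05 and 0.202 over the alternatives. The FGFR4 call was lost, with an adjusted p above 0.05, without somatic + ActA replicate 1 (log2 difference -1.13), somatic + ActA replicate 2 (-1.13), cjPGCLC + ActA replicate 1 (-1.12), somatic − ActA replicate 1 (-1.22), somatic − ActA replicate 2 (-1.04), cjPGCLC − ActA replicate 1 (-1.0) and cjPGCLC − ActA replicate 2 (-1.24). In earlier stages FGFR4 had 1068 and 1191 in cjiPSC TESR, 1415 and 1211 in cjiPSC cjPSCM, 909 and 912 (− ActA) and 1002 and 1004 (+ ActA) in TESR pre-ME, and 1167 and 1064 (− ActA) and 1368 and 1267 (+ ActA) in cjPSCM pre-ME. The cjPGCLCs from pre-ME + ActA had 2.21-fold less FGFR4 than those from pre-ME − ActA (log2 fold change -1.15 ± 0.12, adjusted p = 0.000214), and it fell from pre-ME + ActA to cjPGCLCs (log2 fold change -1.12 ± 0.12, adjusted p = 2.5e-06) and to somatic cells (log2 fold change -1.43 ± 0.13, adjusted p = 2.53e-07).

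KLB, the co-receptor through which endocrine FGFs other than FGF23 reach FGFR1 and FGFR4, was detected mainly in the cjPGCLCs. It had 98.7 and 101 normalised counts in cjPGCLC − ActA and 34.7 and 42.7 in cjPGCLC + ActA, 4.61 and 1.55 in somatic − ActA and 1.77 and 0 in somatic + ActA. In the other conditions no library exceeded 1.49, and 6 of the 12 libraries of cjiPSCs and pre-ME had 0 counts. The ratio of cjPGCLCs to somatic cells was 35.8 with an exact 95% counting interval of 12.1 to 175 without ActA (log2 fold change 5.12 ± 0.60, adjusted p = 5.76e-05) and 46.5 with an exact 95% counting interval of 8.08 to 1862 with ActA (log2 fold change 5.39 ± 0.78, adjusted p = 0.000865). With ActA, the adjusted p lay between 2.92e-08 and 0.0316 over the alternatives. For KLB, the log2 fold change was 8.47 without somatic + ActA replicate 1. Against their pre-ME, cjPGCLCs were at least 11.5-fold higher with ActA (log2 fold change 8.44 ± 0.99, adjusted p = 9.66e-06), and the ratio without ActA was 269 with an exact 95% counting interval of 47.7 to 10679.5 (log2 fold change 7.68 ± 0.66, adjusted p = 5.85e-07). KLB thus rose in cjPGCLCs in both ActA histories, although it could pass the filter on low counts only through the cjPGCLC libraries. Its being tested therefore already required a higher level there. FGFRL1, which lacks the kinase domain, lay between 191 and 690.04 over the 20 libraries. It was higher in cjPSCM pre-ME + ActA than in the cjiPSCs (2.64-fold, log2 fold change 1.41 ± 0.25, adjusted p = 0.00107).

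**Figure D3:**
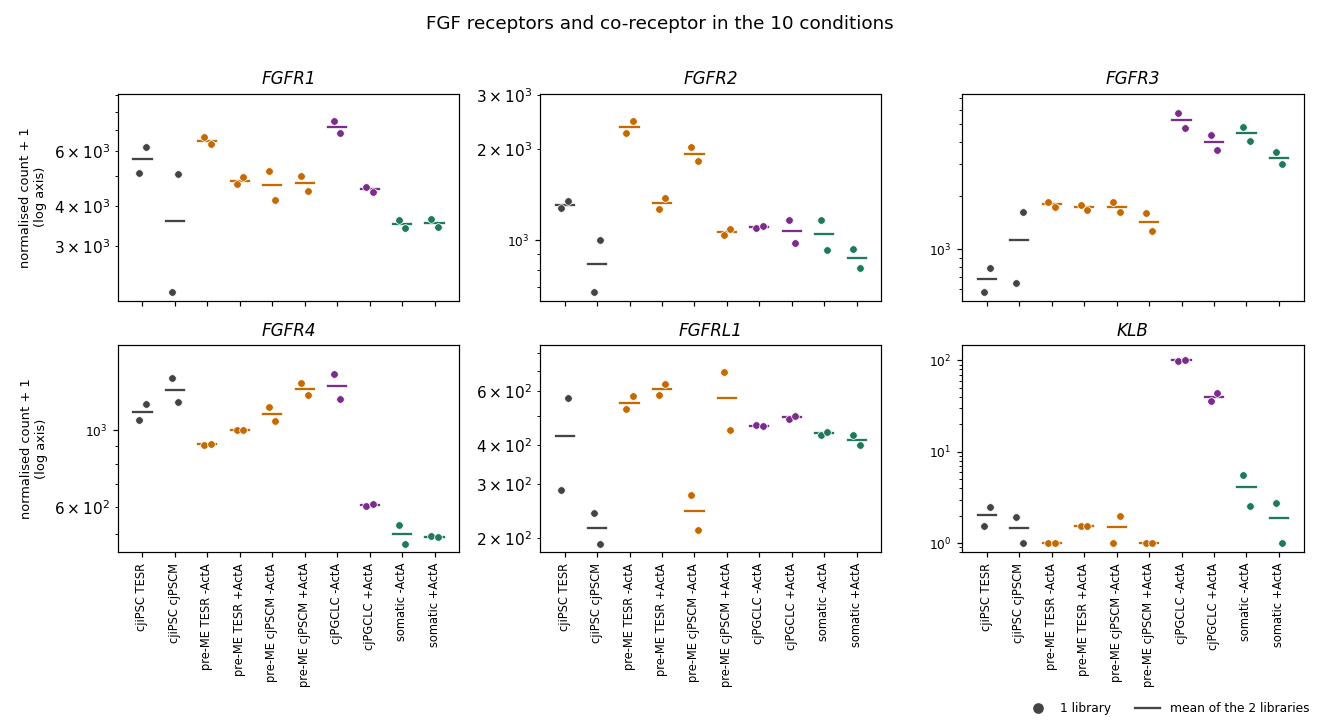
Normalised counts plus 1 (log axis, with a different range in each panel) of FGFR1, FGFR2, FGFR3, FGFR4, FGFRL1 and KLB in the 10 conditions, where each point is 1 library and each line the mean of the 2 libraries. FGFR3 lies at 578 to 1626 in cjiPSCs and 2996 to 5765 in sorted cells, FGFR2 is highest in pre-ME − ActA, and KLB is above 30 only in the 4 cjPGCLC libraries.

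Most feedback inhibitors fell from cjiPSC TESR to the other early conditions, and ActA raised part of them. Of the 9 tested (SPRY1, SPRY2, SPRY4, SPRED1 to SPRED3, DUSP4, DUSP5 and DUSP6), 7 were lower (77.8%, all genes 18.1%) and 1 higher (11.1%, all genes 18.1%) in cjPSCM than in TESR cjiPSCs. The median log2 fold change was -1.45 (median of all genes tested, -0.000438). The induction without ActA lowered 9 of the 9 in TESR (100%, against 19.2% of all genes, median -1.48, all genes -0.03). In cjPSCM it also lowered 9 of the 9 (100%, against 20.1% of all genes, median -1.11, all genes 0.03). With ActA, 8 of the 9 were lower in TESR (88.9%, all genes 17.1%), with a median of -0.89. In cjPSCM with ActA, 3 were lower (33.3%, all genes 10.3%) and 1 higher (11.1%, all genes 7.42%), with a median of -0.18. ActA itself raised 5 of the 9 in TESR pre-ME (55.6%, all genes 5.63%), with a median of 0.90. In cjPSCM pre-ME it raised 5 (55.6%, all genes 11.4%), with a median of 0.71. From pre-ME − ActA, 7 rose to somatic cells (77.8%, all genes 20.6%), with a median of 0.86. Towards cjPGCLCs, 4 rose (44.4%, all genes 21.5%) and 1 fell (11.1%, all genes 18.5%), with a median of 0.54. From pre-ME + ActA, 2 rose (22.2%, all genes 23.8%) and 1 fell (11.1%, all genes 24.2%) to somatic cells. To cjPGCLCs + ActA, 2 rose (22.2%, all genes 25.3%) and 3 fell (33.3%, all genes 23.0%). The genes are related in function and their values are not independent of each other.

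DUSP6, the cytoplasmic ERK phosphatase, had 9708 and 8571 normalised counts in cjiPSC TESR and 2763 and 3019.5 in cjiPSC cjPSCM, 924 and 855 (− ActA) and 3134 and 3791 (+ ActA) in TESR pre-ME, and 936 and 822 (− ActA) and 2969.6 and 2675 (+ ActA) in cjPSCM pre-ME. In sorted cells it had 1662 and 1300.2 in cjPGCLC − ActA, 2366 and 2040.3 in cjPGCLC + ActA, 2719 and 2378 in somatic − ActA and 2649 and 2095 in somatic + ActA. The 4 libraries of pre-ME − ActA were the lowest of all 20, below 937, and those of cjiPSC TESR the highest. DUSP6 was 3.16-fold lower in cjPSCM than in TESR cjiPSCs (log2 fold change -1.68 ± 0.16, adjusted p = 5.7e-07), and the induction without ActA lowered it 10.3-fold in TESR (log2 fold change -3.35 ± 0.17, adjusted p = 1.03e-09) and 3.29-fold in cjPSCM (log2 fold change -1.68 ± 0.16, adjusted p = 1.9e-06). The test of this difference between media gave -1.67 ± 0.22 (adjusted p = 0.000356). ActA raised it 3.89-fold in TESR pre-ME (log2 fold change 1.96 ± 0.16, adjusted p = 9.8e-07) and 3.21-fold in cjPSCM pre-ME (log2 fold change 1.66 ± 0.16, adjusted p = 4.68e-06). From pre-ME − ActA it rose 2.90-fold to somatic cells (log2 fold change 1.5 ± 0.16, adjusted p = 1.98e-06) and 1.68-fold to cjPGCLCs (log2 fold change 0.74 ± 0.16, adjusted p = 0.00144), and cjPGCLC − ActA had 1.72-fold less than somatic − ActA (adjusted p = 0.0047). For this sort difference, the adjusted p lay between 9.85e-05 and 0.085 over the alternatives. The DUSP6 call was lost, with an adjusted p above 0.05, without somatic − ActA replicate 1 (log2 fold change -0.66) and cjPGCLC − ActA replicate 2 (-0.61).

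SPRY4, a Sprouty inhibitor induced by FGF, changed over the widest range of the feedback inhibitors. It had 5402 and 5043 in cjiPSC TESR but 752 and 710.0 in cjiPSC cjPSCM, 418 and 322 (− ActA) and 2786 and 2803 (+ ActA) in TESR pre-ME, and 132 and 72.3 (− ActA) and 1116 and 886 (+ ActA) in cjPSCM pre-ME. The sorted cells had 202 and 247 (− ActA) and 437 and 424 (+ ActA) in cjPGCLCs and 332 and 357 (− ActA) and 583 and 477 (+ ActA) in somatic cells. SPRY4 was 7.15-fold lower in cjPSCM than in TESR cjiPSCs (log2 fold change -2.86 ± 0.20, adjusted p = 2.53e-08) and fell in the induction without ActA 14.1-fold in TESR (log2 fold change -3.81 ± 0.21, adjusted p = 3.35e-09) and 7.15-fold in cjPSCM (log2 fold change -2.77 ± 0.22, adjusted p = 2.43e-07). With ActA it was 7.55-fold higher than without in TESR (log2 fold change 2.92 ± 0.20, adjusted p = 2.85e-07) and 9.79-fold higher in cjPSCM (log2 fold change 3.24 ± 0.22, adjusted p = 1.73e-07). The day 4 cells lay between these extremes, so that SPRY4 fell from pre-ME + ActA to cjPGCLCs (log2 fold change -1.22 ± 0.20, adjusted p = 0.00011) and somatic cells (log2 fold change -0.93 ± 0.20, adjusted p = 0.00111) and rose from pre-ME − ActA to somatic cells (log2 fold change 1.69 ± 0.22, adjusted p = 1.63e-05) and cjPGCLCs (log2 fold change 1.08 ± 0.22, adjusted p = 0.00101). In the last of these, the adjusted p lay between 1.85e-06 and 0.0211 over the alternatives. For SPRY4, the log2 fold change was 0.72 without cjPSCM pre-ME − ActA replicate 2. It was 1.91-fold higher in cjPGCLCs from pre-ME with than without ActA (adjusted p = 0.0217). In that comparison, the adjusted p lay between 1.81e-05 and 0.297 over the alternatives. The SPRY4 call was lost, with an adjusted p above 0.05, without cjPGCLC + ActA replicate 1 (log2 fold change 0.92), cjPGCLC + ActA replicate 2 (0.97), cjPGCLC − ActA replicate 1 (0.80) and cjPGCLC − ActA replicate 2 (1.09).

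SPRY1 had 2102 and 1572 in cjiPSC TESR, 813 and 547 in cjiPSC cjPSCM, 405 and 416 (− ActA) and 813 and 969.7 (+ ActA) in TESR pre-ME, 314 and 296 (− ActA) and 390.5 and 393 (+ ActA) in cjPSCM pre-ME. On day 4, SPRY1 had 152 and 151 (− ActA) and 329.6 and 284 (+ ActA) in cjPGCLCs and 274 and 292 (− ActA) and 398 and 295 (+ ActA) in somatic cells. The decline from cjiPSC TESR was 2.7-fold to cjiPSC cjPSCM (log2 fold change -1.45 ± 0.19, adjusted p = 1.59e-05) and 4.47-fold to TESR pre-ME − ActA (log2 fold change -2.15 ± 0.19, adjusted p = 6.24e-07), and ActA raised SPRY1 2.17-fold in TESR pre-ME (log2 fold change 1.12 ± 0.19, adjusted p = 0.000846), whereas in cjPSCM pre-ME the value was 0.34 ± 0.19, adjusted p = 0.222. In cjPGCLC − ActA it was lower than in pre-ME − ActA (2.01-fold, log2 fold change -1.02 ± 0.21, adjusted p = 0.000876). SPRY1 was also lower in cjPGCLCs than in somatic cells − ActA (adjusted p = 0.0131). For this sort difference, the adjusted p lay between 0.000421 and 0.118 over the alternatives. The SPRY1 call was lost, with an adjusted p above 0.05, without somatic − ActA replicate 1 (log2 fold change -0.93), somatic − ActA replicate 2 (-0.84), cjPGCLC − ActA replicate 1 (-0.90) and cjPGCLC − ActA replicate 2 (-0.89). SPRY2 had 1922 and 1669 in cjiPSC TESR and 329.7 and 895 in cjiPSC cjPSCM, whose replicates differed more than those of any other condition for this gene. It had 859 and 841 (− ActA) and 1021 and 1044 (+ ActA) in TESR pre-ME, 377 and 322 (− ActA) and 650.0 and 509.8 (+ ActA) in cjPSCM pre-ME. On day 4, SPRY2 had 516 and 514 (− ActA) and 388 and 491 (+ ActA) in cjPGCLCs and 694 and 608 (− ActA) and 724 and 783 (+ ActA) in somatic cells. SPRY2 was 2.93-fold lower in cjPSCM than in TESR (log2 fold change -1.6 ± 0.28, adjusted p = 0.000308) and 2.11-fold lower in TESR pre-ME − ActA than in the cjiPSCs (log2 fold change -1.07 ± 0.27, adjusted p = 0.00592). Between the media, the adjusted p lay between 5.47e-18 and 0.022 over the alternatives. For SPRY2, the log2 fold change was -1.05 without cjiPSC cjPSCM replicate 1 and -2.45 without cjiPSC cjPSCM replicate 2. The cjPSCM induction without ActA gave log2 fold change -0.75 ± 0.28, adjusted p = 0.0473, although the libraries overlapped. In that induction, the adjusted p lay between 4.14e-05 and 0.665 over the alternatives. The SPRY2 call was lost, with an adjusted p above 0.05, without cjiPSC cjPSCM replicate 2 (log2 fold change 0.10), cjPSCM pre-ME − ActA replicate 1 (-0.86) and cjPSCM pre-ME − ActA replicate 2 (-0.63). For SPRY2, the log2 fold change was -1.30 without cjiPSC cjPSCM replicate 1. In the TESR induction with ActA (1.74-fold lower, adjusted p = 0.0328), the adjusted p lay between 0.000115 and 0.14 over the alternatives. The SPRY2 call was lost, with an adjusted p above 0.05, without cjiPSC TESR replicate 1 (log2 fold change -0.66), TESR pre-ME + ActA replicate 1 (-0.77) and TESR pre-ME + ActA replicate 2 (-0.80). From pre-ME − ActA to somatic cells (1.86-fold higher, adjusted p = 0.0234), the adjusted p lay between 8.5e-05 and 0.143 over the alternatives. The SPRY2 call was lost, with an adjusted p above 0.05, without cjPSCM pre-ME − ActA replicate 1 (log2 fold change 0.97), cjPSCM pre-ME − ActA replicate 2 (0.74), somatic − ActA replicate 1 (0.76) and somatic − ActA replicate 2 (0.93).

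SPRED3 differed from the other inhibitors in the medium comparison. It had 139 and 173 in cjiPSC TESR but 717 and 642 in cjiPSC cjPSCM, 62.5 and 60.4 (− ActA) and 70.6 and 66.9 (+ ActA) in TESR pre-ME, 60.1 and 33.7 (− ActA) and 112 and 111 (+ ActA) in cjPSCM pre-ME. On day 4, SPRED3 had 66.1 and 58.3 (− ActA) and 138 and 125 (+ ActA) in cjPGCLCs and 78.4 and 92.8 (− ActA) and 138 and 127 (+ ActA) in somatic cells. It was 4.35-fold higher in cjPSCM (log2 fold change 2.12 ± 0.20, adjusted p = 5.83e-07), where it was the sole inhibitor called higher, and fell in the cjPSCM inductions 14.5-fold without ActA (log2 fold change -3.78 ± 0.22, adjusted p = 3.27e-08) and 6.10-fold with ActA (log2 fold change -2.59 ± 0.21, adjusted p = 7.12e-07). ActA raised it 2.37-fold in cjPSCM pre-ME (log2 fold change 1.19 ± 0.22, adjusted p = 0.00176), and in TESR pre-ME the value was 0.16 ± 0.21, adjusted p = 0.782. SPRED3 RNA therefore fell in both media during induction, from a higher start in cjPSCM, and the test of the difference without ActA gave 2.47 ± 0.30 (adjusted p = 0.000131). DUSP5, the nuclear ERK phosphatase, was highest in cjPGCLC − ActA. It had 1081 and 908 in cjPGCLC − ActA, 416 and 515 in cjPGCLC + ActA, 611 and 678 in somatic − ActA, 595 and 579.9 in somatic + ActA, 172 and 183 (− ActA) and 255 and 235 (+ ActA) in cjPSCM pre-ME, 249 and 130.1 (− ActA) and 447 and 259 (+ ActA) in TESR pre-ME, 515 and 743 in cjiPSC TESR and 403 and 377 in cjiPSC cjPSCM. From pre-ME − ActA it rose 5.60-fold to cjPGCLCs (log2 fold change 2.48 ± 0.28, adjusted p = 3.65e-06) and 3.63-fold to somatic cells (log2 fold change 1.84 ± 0.28, adjusted p = 6.71e-05), and it fell 3.32-fold in the TESR induction without ActA (log2 fold change -1.71 ± 0.27, adjusted p = 0.000151). Between the TESR pre-ME with and without ActA it was called higher (adjusted p = 0.0418). In that comparison, the adjusted p lay between 5.85e-05 and 0.598 over the alternatives. The DUSP5 call was lost, with an adjusted p above 0.05, without TESR pre-ME − ActA replicate 2 (log2 fold change 0.51) and TESR pre-ME + ActA replicate 1 (0.46). For DUSP5, the log2 fold change was 1.44 without TESR pre-ME − ActA replicate 1. DUSP4, SPRED1 and SPRED2 each had their highest mean in cjiPSC TESR. DUSP4 lay between 170 and 1531 over the 20 libraries, SPRED1 between 469 and 1537, and SPRED2 between 620.2 and 1727. The ActA effect on DUSP4 was 3.45-fold in cjPSCM pre-ME (log2 fold change 1.76 ± 0.25, adjusted p = 0.000159), and SPRY3, which was not tested, had at most 15 counts.

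**Figure D4:**
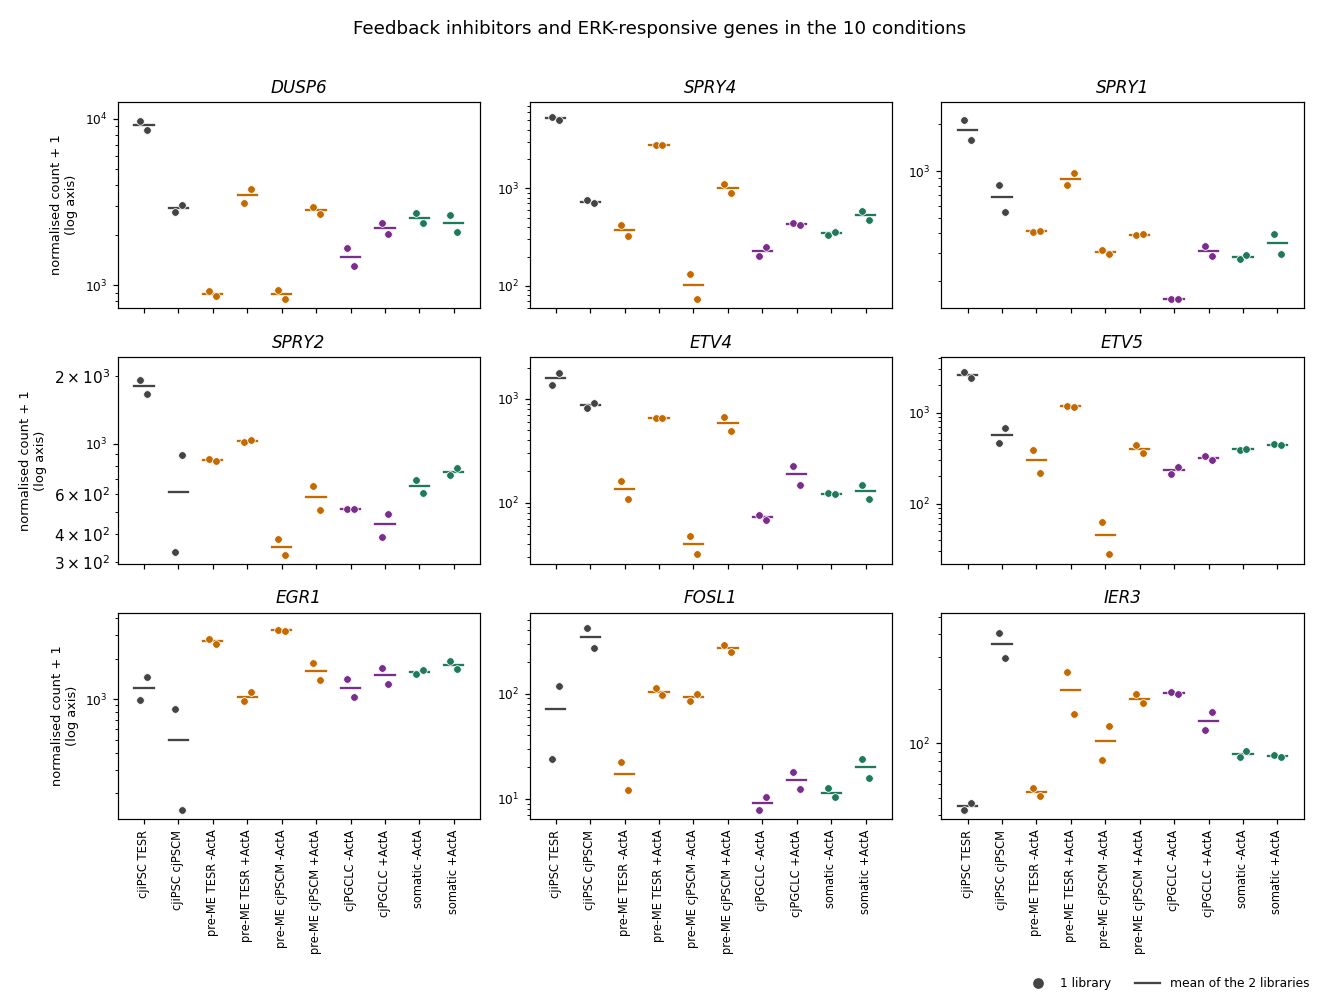
Normalised counts plus 1 (log axis, with a different range in each panel) of the feedback inhibitors DUSP6, SPRY4, SPRY1 and SPRY2 and of the ERK-responsive genes ETV4, ETV5, EGR1, FOSL1 and IER3 in the 10 conditions, where each point is 1 library and each line the mean of the 2 libraries. DUSP6, SPRY4, ETV4 and ETV5 are highest in cjiPSC TESR and lie lower in pre-ME − ActA than in pre-ME + ActA of the same medium, while EGR1 lies higher in pre-ME − ActA.

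Among the ERK-responsive genes, the ETS factors ETV4 and ETV5 followed the inhibitors. ETV4 had 1372 and 1793 in cjiPSC TESR and 825 and 919 in cjiPSC cjPSCM, 161 and 109 (− ActA) and 659 and 658 (+ ActA) in TESR pre-ME, 46.6 and 30.7 (− ActA) and 676 and 492 (+ ActA) in cjPSCM pre-ME. On day 4, ETV4 had 74.4 and 67.8 (− ActA) and 227 and 146 (+ ActA) in cjPGCLCs and 122 and 119 (− ActA) and 149 and 107 (+ ActA) in somatic cells. The lowest libraries were those of cjPSCM pre-ME − ActA, 22.6-fold below the cjiPSCs (log2 fold change -4.42 ± 0.27, adjusted p = 5.99e-08), and TESR pre-ME − ActA was 11.7-fold below (log2 fold change -3.54 ± 0.24, adjusted p = 3.83e-08). ActA raised ETV4 15.1-fold in cjPSCM pre-ME (log2 fold change 3.86 ± 0.27, adjusted p = 2.37e-07) and 4.88-fold in TESR pre-ME (log2 fold change 2.29 ± 0.23, adjusted p = 7.02e-06). From pre-ME + ActA it fell 3.12-fold to cjPGCLCs (log2 fold change -1.63 ± 0.24, adjusted p = 3.96e-05) and 4.56-fold to somatic cells (log2 fold change -2.21 ± 0.25, adjusted p = 3.65e-06), and from pre-ME − ActA it rose 3.12-fold to somatic cells (log2 fold change 1.57 ± 0.30, adjusted p = 0.000512). In cjPGCLCs against pre-ME − ActA (1.84-fold higher, adjusted p = 0.0331), the adjusted p lay between 0.00872 and 0.224 over the alternatives. The ETV4 call was lost, with an adjusted p above 0.05, without cjPSCM pre-ME − ActA replicate 2 (log2 fold change 0.58), cjPGCLC − ActA replicate 1 (0.74) and cjPGCLC − ActA replicate 2 (0.87). In cjPGCLCs from pre-ME with against without ActA (2.63-fold higher, adjusted p = 0.00923), the adjusted p lay between 7.29e-08 and 0.204 over the alternatives. The ETV4 call was lost, with an adjusted p above 0.05, without cjPGCLC + ActA replicate 1 (log2 fold change 1.03), cjPGCLC − ActA replicate 1 (1.48) and cjPGCLC − ActA replicate 2 (1.35).

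ETV5 had 2786 and 2369 in cjiPSC TESR and 457 and 671 in cjiPSC cjPSCM, 383 and 213 (− ActA) and 1179 and 1158 (+ ActA) in TESR pre-ME, 62.5 and 26.7 (− ActA) and 441 and 355 (+ ActA) in cjPSCM pre-ME. On day 4, ETV5 had 212 and 252 (− ActA) and 329 and 299 (+ ActA) in cjPGCLCs and 385 and 401 (− ActA) and 452 and 437 (+ ActA) in somatic cells. It was 4.57-fold lower in cjPSCM than in TESR cjiPSCs (log2 fold change -2.22 ± 0.27, adjusted p = 6.96e-06), and the inductions without ActA lowered it 8.64-fold in TESR (log2 fold change -3.11 ± 0.27, adjusted p = 5.94e-07) and 12.6-fold in cjPSCM (log2 fold change -3.54 ± 0.31, adjusted p = 8.72e-07). ActA raised it 3.92-fold (log2 fold change 1.97 ± 0.26, adjusted p = 0.000101) and 8.92-fold (log2 fold change 3.07 ± 0.31, adjusted p = 7.52e-06) in TESR and cjPSCM pre-ME. Both day 4 populations − ActA lay above their pre-ME, 5.20-fold in cjPGCLCs (log2 fold change 2.28 ± 0.32, adjusted p = 3.06e-05) and 8.81-fold in somatic cells (log2 fold change 3.04 ± 0.32, adjusted p = 1.49e-06). ETV1, the third factor of this subfamily, lay between 313 and 1936 and did not follow the other two in the TESR induction, where it rose 2.10-fold with ActA (log2 fold change 1.08 ± 0.20, adjusted p = 0.000739). Without ActA its change differed between the media, by 1.65 ± 0.29 on the log2 scale (adjusted p = 0.00279).

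EGR1, an immediate early transcription factor, was highest in pre-ME − ActA. It had 3263 and 3226 in cjPSCM pre-ME − ActA and 2780.4 and 2576 in TESR pre-ME − ActA, against 1849 and 1381 in cjPSCM and 963 and 1123 in TESR pre-ME + ActA, 977 and 1456 in cjiPSC TESR and 841 and 149.7 in cjiPSC cjPSCM. In the sorted cells it had 1397 and 1037 (− ActA) and 1709.8 and 1288 (+ ActA) in cjPGCLCs and 1522 and 1645 (− ActA) and 1899.9 and 1679 (+ ActA) in somatic cells. The condition with its highest mean, cjPSCM pre-ME − ActA, was the one with the lowest means of DUSP6, ETV4 and ETV5. EGR1 was 6.55-fold higher there than in cjiPSC cjPSCM (log2 fold change 2.71 ± 0.45, adjusted p = 0.000283). In that induction, the adjusted p lay between 1.23e-50 and 0.0669 over the alternatives. For EGR1, the log2 fold change was 4.49 without cjiPSC cjPSCM replicate 1. As a fold, the replicates of cjiPSC cjPSCM lay further apart than the medium means. Between the media (2.46-fold lower, adjusted p = 0.033), the adjusted p lay between 3.41e-12 and 0.153 over the alternatives. The EGR1 call was lost, with an adjusted p above 0.05, without cjiPSC TESR replicate 2 (log2 fold change -0.97) and cjiPSC cjPSCM replicate 2 (-0.52). For EGR1, the log2 fold change was -3.05 without cjiPSC cjPSCM replicate 1. In the TESR induction without ActA (2.20-fold higher, adjusted p = 0.0427), the adjusted p lay between 2.63e-11 and 0.212 over the alternatives. The EGR1 call was lost, with an adjusted p above 0.05, without cjiPSC TESR replicate 1 (log2 fold change 0.91), cjiPSC TESR replicate 2 (1.44), TESR pre-ME − ActA replicate 1 (1.10) and TESR pre-ME − ActA replicate 2 (1.21). ActA did not pass the test for EGR1 in TESR (log2 fold change -1.36 ± 0.43, adjusted p = 0.058) or cjPSCM (log2 fold change -1.02 ± 0.43, adjusted p = 0.0951), although the libraries did not overlap in either medium.

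FOSL1, an AP-1 subunit, had 23.1 and 118 in cjiPSC TESR and 420.1 and 271 in cjiPSC cjPSCM, 21.4 and 11.2 (− ActA) and 112 and 96.1 (+ ActA) in TESR pre-ME, 84.3 and 98.1 (− ActA) and 291 and 250.0 (+ ActA) in cjPSCM pre-ME. On day 4, FOSL1 had 6.84 and 9.46 (− ActA) and 16.9 and 11.4 (+ ActA) in cjPGCLCs and 11.5 and 9.28 (− ActA) and 23.0 and 14.9 (+ ActA) in somatic cells. All 8 libraries of sorted cells lay at or below 23.0, and the fall from cjPSCM pre-ME + ActA was 19.1-fold to cjPGCLCs (log2 fold change -4.20 ± 0.56, adjusted p = 1.59e-05) and 14.3-fold to somatic cells (log2 fold change -3.86 ± 0.57, adjusted p = 4.41e-05). Without ActA it was 11.2-fold (log2 fold change -3.54 ± 0.63, adjusted p = 0.000333) and 8.76-fold (log2 fold change -3.17 ± 0.68, adjusted p = 0.00136). FOSL1 was 4.91-fold higher in cjPSCM than in TESR cjiPSCs (log2 fold change 2.44 ± 0.47, adjusted p = 0.000659), but the 2 TESR libraries lay far apart. Between the media, the adjusted p lay between 1.8e-16 and 0.0152 over the alternatives. For FOSL1, the log2 fold change was 1.56 without cjiPSC TESR replicate 1 and 3.86 without cjiPSC TESR replicate 2. For the ActA effect in TESR pre-ME (6.37-fold higher, adjusted p = 0.00203), the adjusted p lay between 5.71e-17 and 0.0587 over the alternatives. The FOSL1 call was lost, with an adjusted p above 0.05, without TESR pre-ME − ActA replicate 2 (log2 fold change 2.27). IER3, an early gene that keeps ERK active, had 41.9 and 46.2 in cjiPSC TESR and 408 and 296 in cjiPSC cjPSCM, 55.4 and 50.5 (− ActA) and 246 and 143 (+ ActA) in TESR pre-ME, 80.2 and 124 (− ActA) and 185 and 166 (+ ActA) in cjPSCM pre-ME. On day 4, IER3 had 192 and 186 (− ActA) and 117 and 148 (+ ActA) in cjPGCLCs and 83.0 and 89.7 (− ActA) and 85.0 and 83.5 (+ ActA) in somatic cells. It was 8.0-fold higher in cjPSCM than in TESR cjiPSCs (log2 fold change 3.0 ± 0.28, adjusted p = 5.43e-07), the reverse of DUSP6 and the ETS factors, and fell in the cjPSCM induction without ActA (3.45-fold, log2 fold change -1.78 ± 0.26, adjusted p = 8.19e-05). ActA raised IER3 3.68-fold in TESR pre-ME (log2 fold change 1.88 ± 0.26, adjusted p = 0.000143). Over the 6 ERK-responsive genes, ActA raised 4 in TESR (66.7%, against 5.63% of all genes, median log2 fold change 1.92, all genes 0.01). In cjPSCM it raised 5 (83.3%, against 11.4% of all genes, median 1.32, all genes -0.02). EGR1 was not among the raised genes in either medium.

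**Figure D5:**
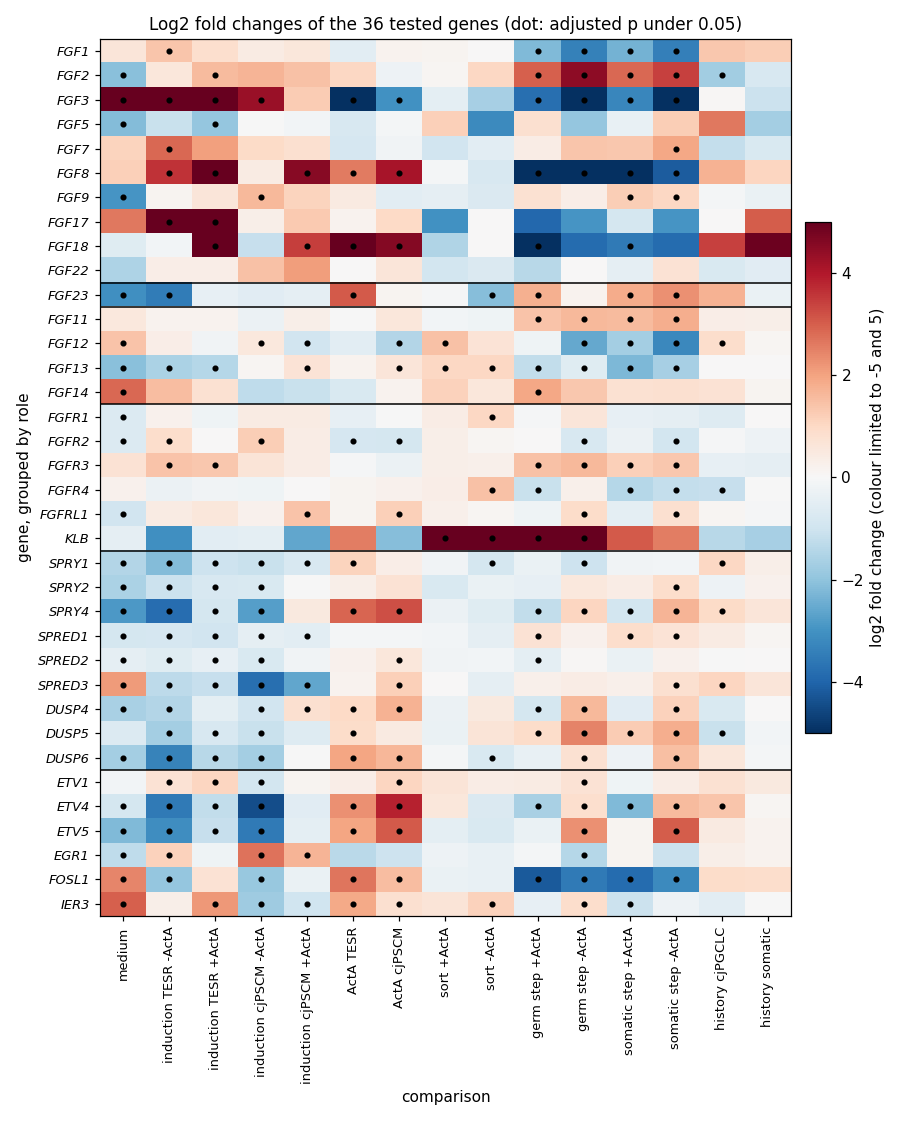
Log2 fold changes of the 36 tested genes (rows, grouped by role) in the 15 comparisons (columns), with red for higher and blue for lower values, the colour limited to -5 and 5, and a dot where the adjusted p was under 0.05. Medium compares cjPSCM with TESR cjiPSCs, induction pre-ME with cjiPSCs, ActA pre-ME with and without ActA, sort cjPGCLCs with somatic cells, germ and somatic step the sorted cells with their pre-ME, and history the sorted cells from pre-ME with and without ActA. The rows from SPRY1 to DUSP6 and those of ETV4 and ETV5 are mostly blue in the medium column and in the induction columns without ActA, except SPRED3 in the medium column, and mostly red in the ActA columns.

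The genes that carry the signal between receptor and target were measured in the same libraries. Of 23 tested genes of the RAS-ERK cascade (adaptors, RAS, RAF, MEK and ERK genes and their regulators), 4 higher (17.4%, all genes 18.1%) and 5 lower (21.7%, all genes 18.1%) were called in the medium comparison, near the shares of all genes. With ActA in cjPSCM pre-ME, FRS2 (-0.57 on the log2 scale), NRAS (-0.54) and BRAF (-0.46) were among the genes called lower. The induction from TESR called 3 higher (13%, all genes 17.4%) and 6 lower (26.1%, all genes 19.2%) without ActA. With ActA, TESR gave 3 higher (13%, all genes 17.3%) and 5 lower (21.7%, all genes 17.1%). In cjPSCM without ActA there were 4 higher (17.4%, all genes 17.9%) and 8 lower (34.8%, all genes 20.1%), and with ActA 4 lower (17.4%, all genes 10.3%). MAP2K1, which encodes the ERK kinase MEK1, had the largest change of the cascade in each of these, with -1.30, -1.41, -1.16 and -0.91 on the log2 scale. From pre-ME to cjPGCLCs there were 12 higher (52.2%, all genes 25.3%) and 4 lower (17.4%, all genes 23.0%) with ActA. Without ActA, this step gave 10 higher (43.5%, all genes 21.5%) and 2 lower (8.7%, all genes 18.5%). From pre-ME to somatic cells there were 12 higher (52.2%, all genes 23.8%) and 6 lower (26.1%, all genes 24.2%) with ActA, and without it 10 higher (43.5%, all genes 20.6%) and 4 lower (17.4%, all genes 21.7%). The higher genes included SOS2 and NF1, a RAS activator and a RAS inhibitor (1.46 and 1.28 from pre-ME − ActA to cjPGCLCs).

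Of 22 tested cofactors and extracellular modulators of FGF signalling, 3 higher (13.6%, all genes 18.1%) and 10 lower (45.5%, all genes 18.1%) were called in cjPSCM against TESR cjiPSCs. The heparan sulphate carrier SDC2 (-3.40 on the log2 scale) and GPC3 (-2.67) and the FGF antagonist IL17RD (-2.19) were lower, and the sulphatase SULF1 (1.56) was higher. IL17RD was higher with than without ActA in TESR (1.46) and in cjPSCM pre-ME (1.37), as were several inhibitors above, and lower in cjPGCLCs and somatic cells than in their pre-ME (-2.51 and -2.89 with ActA). The cofactors called by ActA were 3 higher (13.6%, all genes 5.63%) and 3 lower (13.6%, all genes 3.20%) in TESR. In cjPSCM they were 6 higher (27.3%, all genes 11.4%) and 3 lower (13.6%, all genes 9.54%). GPC3 was higher in cjPGCLCs than in somatic cells, by 2.52 without and 1.51 with ActA. Of 24 tested further ERK-responsive genes, ActA gave 7 higher (29.2%, all genes 5.63%) and 1 lower (4.17%, all genes 3.20%) in TESR pre-ME. In cjPSCM pre-ME it gave 10 higher (41.7%, all genes 11.4%) and 1 lower (4.17%, all genes 9.54%). The calls had MYC (2.02) and ELK3 (1.34) in TESR and HBEGF (1.37), IER2 (1.35) and JUNB (1.25) in cjPSCM among the higher ones, and EGR2 lower in both (-1.73 and -1.46). The induction without ActA gave 6 higher (25%, all genes 17.4%) and 8 lower (33.3%, all genes 19.2%) in TESR. For cjPSCM the counts were 3 higher (12.5%, all genes 17.9%) and 11 lower (45.8%, all genes 20.1%). FOSB, an AP-1 subunit, was higher in both (5.88 and 3.74) and the neuropeptide precursor VGF was lower in both (-4.09 and -2.88). Of 12 receptor tyrosine kinases of other ligands, which also feed the ERK cascade, 3 higher (25%, all genes 6.67%) and 4 lower (33.3%, all genes 2.96%) were called in cjPGCLCs against somatic cells − ActA. With ActA there were 1 higher (8.33%, all genes 3.68%) and 2 lower (16.7%, all genes 1.16%). ERBB3 was higher (1.95 and 1.99) and EGFR, the receptor of the EGF in the medium, was lower (-2.18 and -0.96). EGFR and PDGFRA had risen from pre-ME to the somatic cells (2.61 and 6.92 without ActA).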

How the data were processed

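Poly(A) RNA of 20 libraries was sequenced as paired-end reads. Per the study's methods and the submitters' processing notes, the authors checked reads with FastQC 0.11.8, aligned them to calJac4 with STAR 2.7.0a, counted them per gene with HTSeq 0.11 and deposited the raw counts. The authors also deposited normalised counts, a signal in which each library's counts were scaled by its DESeq2 size factor. DESeq2 size factors were estimated again from the deposited counts, including the rows for reads outside genes. They differed from the ratios of deposited to normalised library totals by at most 3.55e-13%. The annotation release and the strand setting are not given in the sources used here, so overlapping genes may share reads. The rows for reads outside genes (10.6% to 23.2%) were left out of the tests.

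Counts were fitted with edgeR 4.0.16 in R 4.3.3 (TMM, filterByExpr, quasi-likelihood F-test), with 1 coefficient for each of the 10 conditions over all 20 libraries (10 residual degrees of freedom), which gave 15 comparisons and 3 tests of differences between comparisons. P-values were adjusted by Benjamini-Hochberg over 15797 genes. The alternatives were DESeq2 1.42.0, DESeq2 size factors, no filter, the libraries of a comparison alone, a log2 threshold of 2, a replicate block and leaving out each library. In counts simulated on the ActA comparison in cjPSCM pre-ME, edgeR called 99 of 200 genes shifted by 1 on the log2 scale and 197 of 200 shifted by 3. The simulation gave all genes and libraries 1 dispersion, shifted only genes averaging at least 10 counts and held no other differences between conditions. Its rates therefore do not cover low genes or the wide spread of the cjiPSC cjPSCM pair. The members and lists were chosen with earlier results of these data known. Library values are given for genes that passed both thresholds in at least 1 comparison and for FGF2, FGFR1 to FGFR4, DUSP6, SPRY2, SPRY4, ETV4 and ETV5, and for the other genes the range. For lists of other pathway genes, examples were taken from the 4 largest log2 fold changes among the calls. Some results are not reported here. No sequences or coordinates are given.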

Additional observations from a re-analysis of the deposited data

Results flagged for a closer look

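The change from cjiPSCs to pre-ME without ActA differed between TESR and cjPSCM for 9 genes by edgeR's test of the difference between the 2 log2 fold changes (adjusted over all genes tested). All differences are TESR minus cjPSCM on the log2 scale with their standard errors. For FGF8 the difference was 3.19 ± 0.57 (adjusted p = 0.00313) and for FGF3 6.06 ± 1.68 (adjusted p = 0.0423), the latter against cjiPSC TESR libraries at 0, so that its size depends on the prior count of the fit. For FGF3, the adjusted p lay between 0.00222 and 0.221 over the alternatives. It was above 0.05 without cjiPSC TESR replicate 1 (log2 difference 6.01), cjiPSC cjPSCM replicate 2 (5.24), cjPSCM pre-ME − ActA replicate 2 (5.77), TESR pre-ME − ActA replicate 1 (6.22) and TESR pre-ME − ActA replicate 2 (5.74). The differences of the feedback inhibitors were -1.67 ± 0.22 (adjusted p = 0.000356) for DUSP6, -1.04 ± 0.28 (adjusted p = 0.0384) for SPRY4, -1.03 ± 0.27 (adjusted p = 0.0293) for SPRY1 and 2.47 ± 0.30 (adjusted p = 0.000131) for SPRED3. For SPRY4, the adjusted p lay between 0.00101 and 0.324 over the alternatives. It was above 0.05 without cjiPSC TESR replicate 1 (log2 difference -0.97), cjPSCM pre-ME − ActA replicate 1 (-0.53) and TESR pre-ME − ActA replicate 2 (-0.87). For SPRY1, the adjusted p lay between 0.00125 and 0.255 over the alternatives. It was above 0.05 without cjiPSC TESR replicate 1 (log2 difference -0.78), cjPSCM pre-ME − ActA replicate 1 (-1.0), cjPSCM pre-ME − ActA replicate 2 (-1.08), TESR pre-ME − ActA replicate 1 (-1.03) and TESR pre-ME − ActA replicate 2 (-1.06). FGF13 differed by -1.67 ± 0.21 (adjusted p = 0.000232), ETV1 by 1.65 ± 0.29 (adjusted p = 0.00279) and IER3 by 2.06 ± 0.38 (adjusted p = 0.00422). The endothelial and blood marker sum of the cjiPSC cjPSCM libraries, 11375 to 26426 normalised counts against 2348 to 2584 in cjiPSC TESR, came mainly from PECAM1 and CDH5. The study counts PECAM1 among its naïve and formative pluripotency genes. The sum moved with this comparison, and its part in these differences was not tested. The TESR pre-ME libraries are numbered apart from all others in the series, and a batch, if there was one, cannot be told apart from the TESR induction.

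The difference between cjPGCLCs and somatic cells depended on the ActA history for FGFR4, by -1.13 ± 0.18 (adjusted p = 0.0341) on the log2 scale (with ActA minus without). For FGFR4, the adjusted p lay between 4e-05 and 0.202 over the alternatives. It was above 0.05 without somatic + ActA replicate 1 (log2 difference -1.13), somatic + ActA replicate 2 (-1.13), cjPGCLC + ActA replicate 1 (-1.12), somatic − ActA replicate 1 (-1.22), somatic − ActA replicate 2 (-1.04), cjPGCLC − ActA replicate 1 (-1.0) and cjPGCLC − ActA replicate 2 (-1.24).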

How the results depend on the processing

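Of 240 called results of single genes, 150 kept their direction and their side of the threshold under every alternative run on them. Over the 2240 values recomputed, 1994 did so, 245 lost the call and 1 changed direction, SPRY2 in the cjPSCM induction without ActA, at 0.10 (adjusted p = 0.665) without cjiPSC cjPSCM replicate 2 (-1.30 without cjiPSC cjPSCM replicate 1). With the added log2 threshold of 2, the called genes numbered 12 for the medium, 10, 5, 6 and 3 for the inductions (TESR − ActA, TESR + ActA, cjPSCM − ActA, cjPSCM + ActA), 7 and 6 for ActA (TESR, cjPSCM), 1 and 2 for the sort (+ ActA, − ActA), 7 and 9 for the step to cjPGCLCs, 8 and 8 for the step to somatic cells and 0 for the history in cjPGCLCs. With the libraries of the comparison alone, they numbered 13 for the medium, 11 and 2 for the cjPSCM inductions (− ActA, + ActA), 7 and 14 for the sort (+ ActA, − ActA), 1 for the history in somatic cells, and 7, 5 and 3 for the differences (ActA by medium, induction by medium, sort by ActA). Without the filter they were 5 and 13 for the sort, 14 for the history in cjPGCLCs, and 7, 14 and 3 for the differences. DESeq2 called 2 genes for ActA by medium. Leaving out 1 library gave 5 to 16 calls in the cjPSCM induction with ActA, 11 to 15 for ActA in cjPSCM, 3 to 4 for the sort − ActA, 1 to 6 for the history in cjPGCLCs, and 0 to 1, 6 to 14 and 0 to 1 for the differences. The labels name nothing that same-numbered libraries share, and the correlations of their deviations lay between -0.204 and 0.258. They were above 0.1 in 5 comparisons, ActA in TESR (0.251) and cjPSCM (0.253), the history in cjPGCLCs (0.258), the sort + ActA (0.131) and the step to cjPGCLCs − ActA (0.111), and whether the numbers pair the libraries cannot be settled from 2 pairs. With a replicate block, ActA by medium had 1 call, the medium 26, the TESR induction − ActA 24, the sort − ActA 7, the history in cjPGCLCs 9, the step to somatic cells + ActA 19 and induction by medium 8. A crossed block, chosen after seeing the data, gave 18 and 11 calls in the cjPSCM inductions (− ActA, + ActA) and 25 in the step to somatic cells − ActA. DESeq2 size factors moved the median of all genes by at most 0.033 on the log2 scale. The causes were not tested. With 2 libraries per condition and 4784964 to 22067099 reads, low genes such as FGF5, FGF7, FGF14 and FGF17 rest on few counts, and p-values measure the spread between cultures of 1 line.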
